A study of Mus musculus with 4 samples.

Results

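The potassium channel genes of newborn mouse brain are described here as the 95 rows (94 gene names) whose names begin with Kcn, out of 20793 gene rows measured by RNA-seq. They were chosen by name alone and sorted by subfamily letter, and Kcnh8 has 2 rows. Of them, 68 rows (67 names) had a mean of 1 or more FPKM (fragments scaled for transcript length and for the mapped total of the library) over the 4 libraries and were tested. The other 27 rows lay under that level, 2 of them (Kcnk15 and Kcnk16) listed at 0 in every library.

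The series asked what loss of CIC (capicua), a DNA-binding transcriptional repressor, does to the developing mouse brain. It compares 2 CIC knockout (KO) brain libraries with 2 wild-type (WT) brain libraries, lettered A and B in each group, all from postnatal day 1. The knockout genotype is given as Nes-Cre;CIClox/lox, in which Cre under nestin control deletes a floxed Cic gene in neural progenitors and the cells they form, so cells of other origin, such as microglia, are not targeted. The WT genotype is given as Nes-Cre;CIC+/+, while the WT titles read Cre minus on a floxed (L_L) background, so the labels do not settle whether WT animals carried Cre. The sources used here give neither strain nor sex nor how many animals were used. The labels do not tie the libraries of a group to different animals, and the p-values therefore cover the variation among these 4 libraries, which may be technical.

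Potassium channels let potassium leave the cell and so set the resting potential, end each action potential and space out firing. Voltage-gated (Kv) channels are built of 4 pore-forming subunits, to which auxiliary proteins bind, and electrically silent modifier subunits join some of them. Inward rectifiers (Kcnj) hold neurons and glia near rest and include the channels opened by G proteins or closed by ATP. Two-pore channels (Kcnk) carry background leak. Calcium-activated (Kcnm, Kcnn) and sodium-activated (Kcnt) channels follow earlier activity of the cell. In newborn brain many of these genes are still at low levels and mature with firing properties after birth.

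Cic itself was lower in both KO libraries, at 19.1 and 22.2 FPKM, against 51.3 and 56.4 FPKM in WT. Its log2 difference, on the log2(FPKM + 1) scale used throughout, was -1.34 ± 0.12 (SE; limma adjusted p 0.213). KO B stood apart from the other 3 libraries in genes that mark brain regions. Thalamic and midbrain markers, such as Tcf7l2, summed to 28.8 FPKM in KO A and 126 FPKM in KO B, against 22.1 and 21.7 FPKM in WT. Hindbrain and cerebellar markers summed to 36.8 and 95.7 FPKM in KO A and B, against 11.9 and 16.2 FPKM in WT. In KO A nearly all of that sum was Zic1 (28.6 FPKM) and Zic4 (8.16 FPKM), the 2 of 6 markers above WT in both KO libraries. En1, En2 and Hoxa5 were at 0.0169, 0 and 0.0189 FPKM in KO A, and at 4.30, 5.27 and 6.09 FPKM in KO B. Hoxb5 was at 0 in KO A, 5.38 FPKM in KO B, and 0 and 0.0184 FPKM in WT. Cortical excitatory markers summed to 356 and 212 FPKM in the KO libraries, against 489 and 510 FPKM in WT, with 6 of 6 markers below both WT libraries in both. Pan-neuronal markers summed to 2750 and 2388 FPKM in KO A and B, against 2811 and 2757 FPKM in WT. Choroid plexus markers summed to 976 and 1046 FPKM in KO brain, against 150 and 491 FPKM in WT. The part of these shifts in the channel results was not tested, and in bulk tissue fewer cells of a type and less RNA per cell cannot be told apart.

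**Figure D1:**
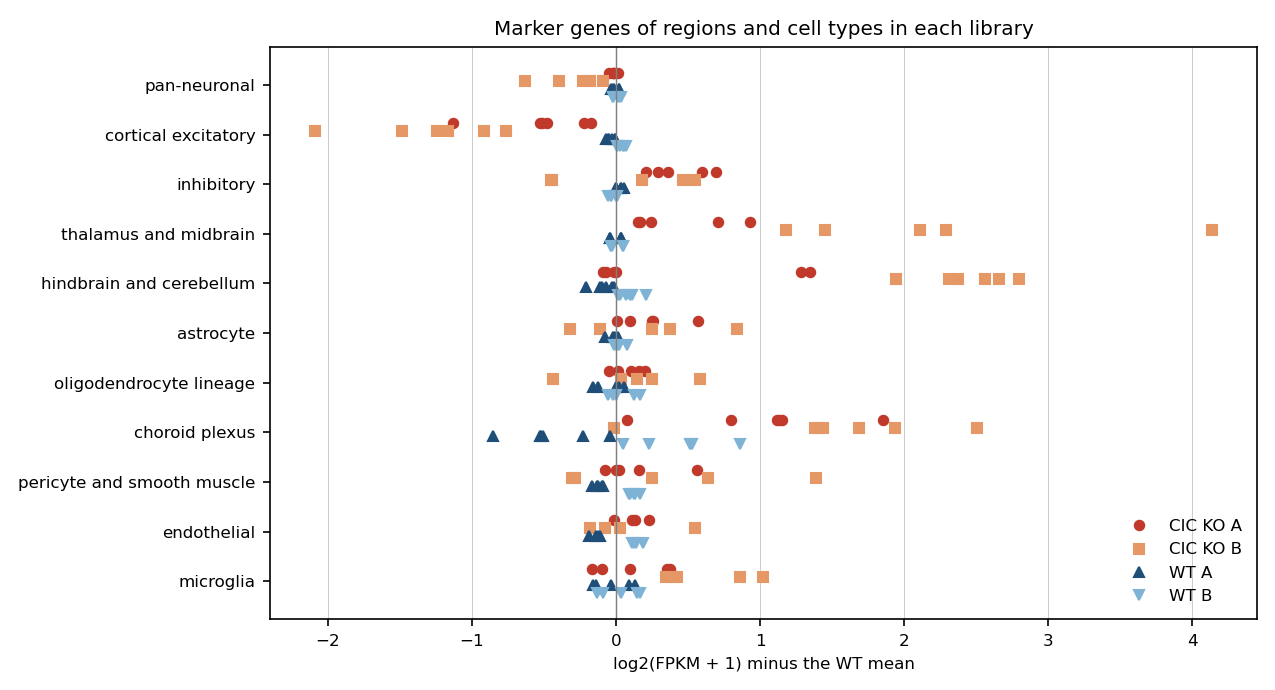
Marker genes of brain regions and cell types, 1 point per gene and library, as log2(FPKM + 1) minus the mean of the WT libraries (horizontal axis). KO B points of the thalamus and midbrain list and of the hindbrain and cerebellum list lie far to the right of the other libraries, while cortical excitatory markers lie to the left of 0 in both KO libraries.

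No potassium channel row passed limma's test between KO and WT, with 0 rows called higher and 0 called lower among 68. Over all 12703 rows tested, 0.0236% were called higher and 0.0236% lower. The lowest adjusted p of a channel row was 0.417. At an unadjusted p under 0.05 there were 14 channel rows (20.6%), 8 higher and 6 lower, against 10.2% of all rows (6.61% higher and 3.54% lower). Both KO libraries lay above both WT libraries for 14 channel rows (20.6%), against 27.1% of all rows. Both lay below for 22 (32.4%), against 21.7% of all rows. The groups were thus separate for 36 channel rows (52.9%), against 48.9% of all rows. The median log2 difference of the channel rows was -0.07, beside 0.02 over all rows, and single rows ran from -0.93 to 0.89. For 1 gene alone, exact permutation of these 4 libraries has 0.333 as its smallest two-sided p. Limma can go lower because it assumes normally distributed errors, and it also pools the variance of many genes.

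The KO libraries differed from each other more than the WT libraries did. They were 0.5 or more apart on the log2 scale in 12 channel rows (17.6%), against 12.1% of all rows. KO B was the lower of the pair in 9 of these 12, and in 864 of the 1535 such rows among all rows tested. The WT libraries were that far apart in 1 channel row (Kcne2), against 1.35% of all rows. Set against the WT mean, the channel rows had a median of 0.03 in KO A and -0.13 in KO B. With KO A left out, KO B alone against the WT pair gave 10 rows called higher (14.7%) and 24 called lower (35.3%), where 17.9% and 16.0% of all rows were called. With KO B left out, 0 channel rows were called in either direction by limma, where 0.126% of all rows were called higher and 0.0866% lower. In that fit the median log2 difference was 0.03 for the channel rows, beside 0.01 over all rows. Both fits assume that the lone KO library varies like the WT pair. With WT A left out, limma called 0 channel rows in either direction and 5 had an unadjusted p under 0.05, where 0.00787% of all rows were called higher, 0.0236% lower and 2.33% had such a p. With WT B left out it called 0 channel rows and 8 had such a p, where 0.0236% of all rows were called higher, 0.0315% lower and 3.47% had such a p.

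Summed over all 95 rows, the channel genes held 530 and 485 FPKM in the KO libraries, against 511 and 510 FPKM in WT. Kv pore subunits made up 42.5% and 43.1% of this sum in KO A and B, against 41.8% and 41.2% in WT. The silent Kv modifiers summed to 25.0 FPKM in KO A and 15.0 FPKM in KO B, against 28.1 and 27.2 FPKM in WT. Sodium-activated channels with Slo3 summed to 20.2 and 18.1 FPKM in KO brain, against 14.8 and 14.9 FPKM in WT. Inward rectifiers summed to 42.2 and 39.0 FPKM in KO brain, against 44.8 and 45.7 FPKM in WT. Auxiliary subunits of Kv channels summed to 100 and 94.0 FPKM in KO, against 91.76 and 91.82 FPKM in WT. Calcium-activated channels summed to 58.71 FPKM in KO A, just under WT A, and 49.5 FPKM in KO B, against 58.73 and 60.2 FPKM in WT. For these 5 classes the groups did not overlap, as was so for 48.9% of all single rows tested. A sum follows its most abundant genes. Of the tested auxiliary rows, 3 lay above, 3 below and 3 overlapped, with a median log2 difference of -0.02. Kcnip1 in that class had 26.3 and 33.4 FPKM in KO, against 17.1 and 16.5 FPKM in WT. In the sodium-activated class only Kcnt1 lay above, while 1 row lay below and 1 overlapped (median -0.15). Kv pore subunits summed to 225 and 209 FPKM in KO, against 213.7 and 209.9 FPKM in WT, and the groups overlapped. Two-pore channels summed to 56.4 and 57.3 FPKM in KO, against 57.0 and 57.2 FPKM in WT, and the groups overlapped.

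**Figure D2:**
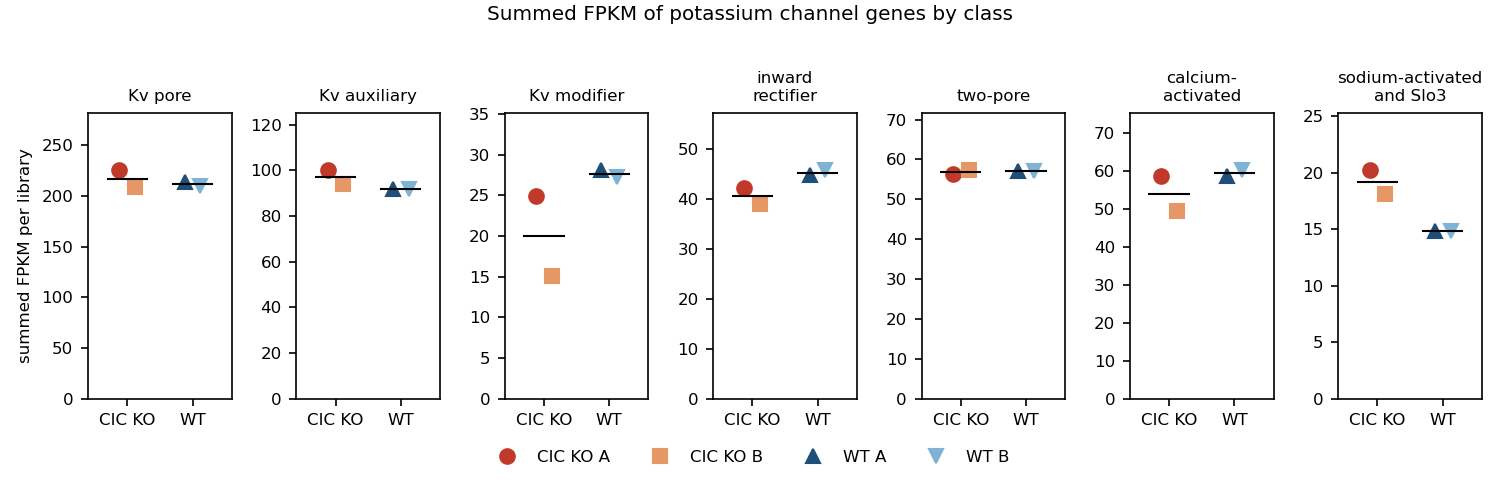
Summed FPKM of each class of potassium channel genes (vertical axes, each from 0) in the 2 KO and 2 WT libraries, with the group mean as a bar. The modifier sum of KO B, at 15.0 FPKM, lies below all others, and both KO sums of the sodium-activated class lie above both WT sums.

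Among pore-forming Kv genes, Kcnc4, Kcnh2 and Kcnd3 lay above both WT libraries in both KO libraries, and Kcnh3 and Kcnq5 lay below. Of 27 tested rows of this class, 5 (18.5%) were above, 8 (29.6%) were below and 14 overlapped, where 27.1% of all rows were above and 21.7% below. The median log2 difference was 0.02, as over all rows. Kcnc4, a fast-activating channel of the Shaw subfamily (mm9, chromosome 3, 107241221 to 107261816), had 8.53 FPKM in KO A and 12.9 FPKM in KO B, against 5.50 and 4.89 FPKM in WT. It had the largest positive difference of the channel rows, 0.89 ± 0.20 (SE; limma adjusted p 0.424). Its paralogue Kcnc1, the Shaw channel known from fast-spiking neurons and the most abundant of its subfamily, had 10.7 and 11.3 FPKM in KO, against 9.59 and 10.02 FPKM in WT. The groups did not overlap, but the difference was only 0.15 ± 0.09.

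Kcnh2, the ether-a-go-go-related channel that also repolarises heart muscle (chromosome 5, 23825407 to 23857422), had 10.6 and 14.3 FPKM in KO brain, against 7.49 and 7.20 FPKM in WT. Its log2 difference was 0.67 ± 0.16 (SE; limma adjusted p 0.435). Both KO libraries were clear of WT, KO B more so. Kcnh3, another member of that subfamily known mainly from forebrain neurons (chromosome 15, 99055407 to 99073248), had 8.60 FPKM in KO A and 2.76 FPKM in KO B, against 10.9 and 10.1 FPKM in WT. This was the largest negative difference of the channel rows (-0.93 ± 0.45, adjusted p of 0.532). It came mostly from KO B, which lay -1.61 from the WT mean, against -0.26 for KO A. The Kcnh3 locus overlaps that of Mcrs1, which had 82.2 and 95.0 FPKM in KO, against 87.1 and 84.0 FPKM in WT. No source used here says whether counting used strand, and reads of the overlap cannot be told apart. Kcnh7 had 2.60 and 2.81 FPKM in KO, against 3.70 and 3.27 FPKM in WT, and the 2 rows of Kcnh8 overlapped between groups.

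Kcnd3, an A-type channel that delays firing (chromosome 3, 105255248 to 105476920), had 17.5 and 18.5 FPKM in KO brain, against 13.5 and 14.2 FPKM in WT. The log2 difference was 0.36 ± 0.09 (SE; limma adjusted p 0.447), and the 2 KO libraries lay close together. Kcnd2, the most abundant A-type gene, had 25.6 and 20.9 FPKM in KO, against 21.1 and 21.7 FPKM in WT, so that the groups overlapped. The same held for Kcna6, the most abundant Shaker-type gene, which had 15.3 and 11.8 FPKM in KO, against 13.2 and 12.8 FPKM in WT.

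Of the Kcnq genes, Kcnq3 and Kcnq5 encode subunits of the slow M-type channels that hold neurons back from repeated firing. Kcnq3 had 10.6 and 9.53 FPKM in KO brain, against 11.9 and 11.4 FPKM in WT, a log2 difference of -0.19 ± 0.10 (SE). Kcnq5 (chromosome 1, 21388484 to 21952023) stood further below WT, with 4.57 and 3.13 FPKM in KO, against 5.89 and 6.58 FPKM in WT (-0.59 ± 0.17; limma adjusted p 0.470). In both genes KO A as well as KO B lay below both WT libraries, and KO B was the lower of the pair.

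**Figure D3:**
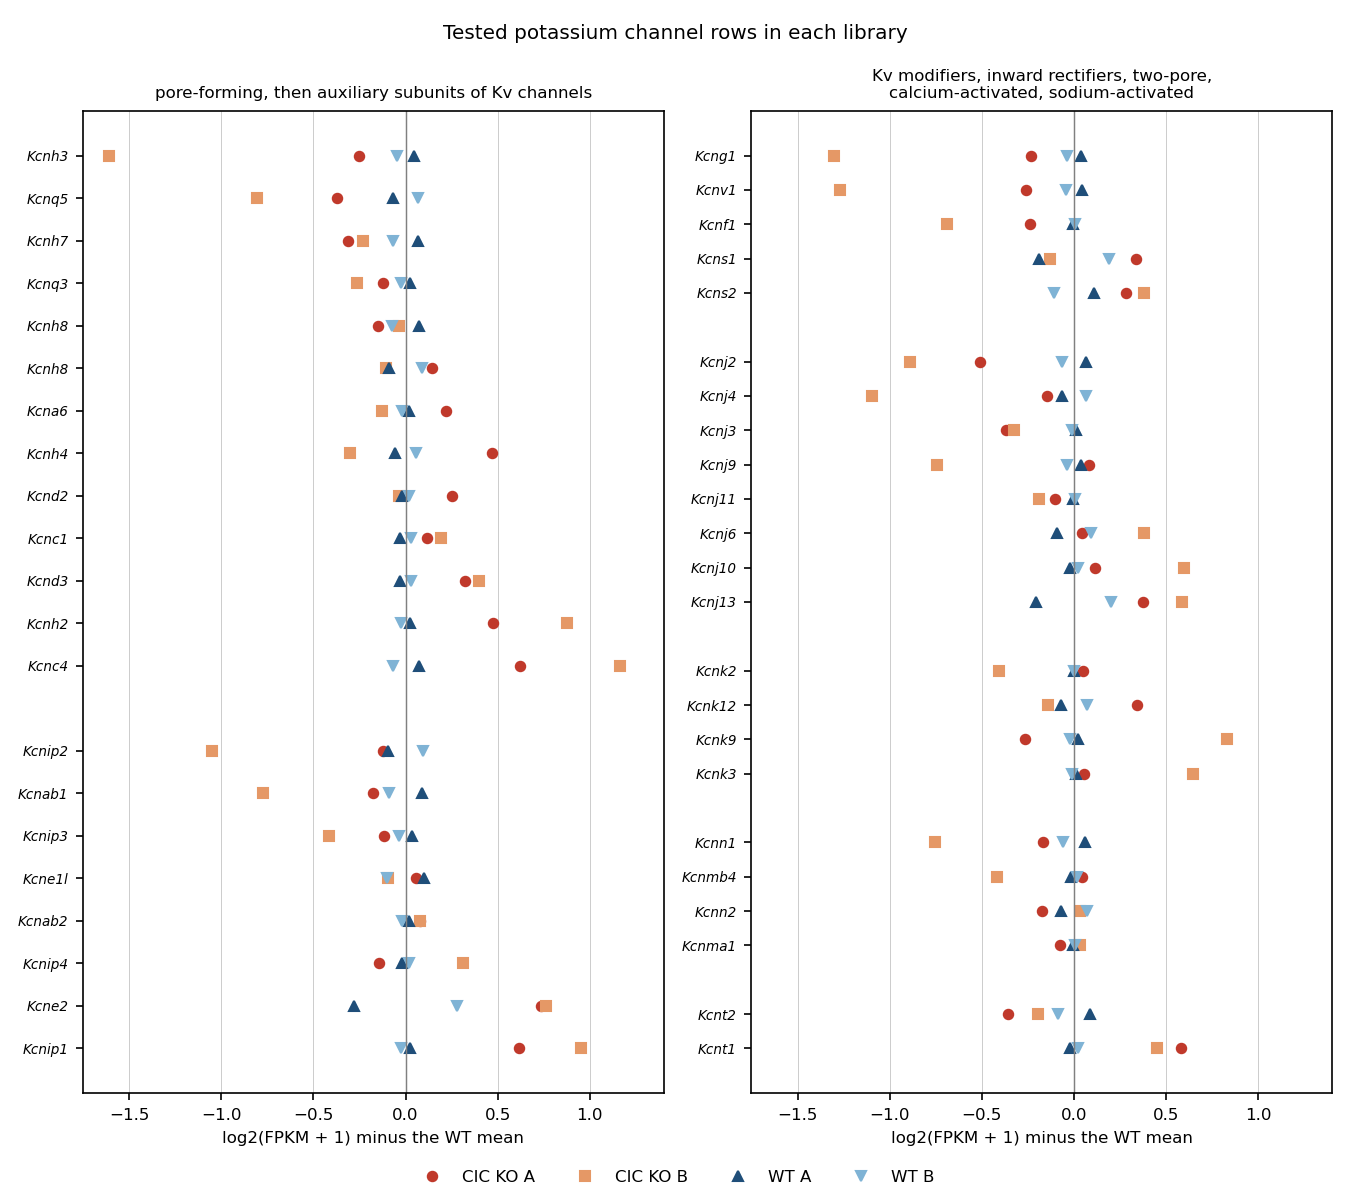
The 44 tested potassium channel rows of genes named in the text, in the 4 libraries, as log2(FPKM + 1) minus the WT mean of that row (horizontal axis), sorted within class by log2 difference. KO B squares reach from -1.61 (Kcnh3) to 1.17 (Kcnc4).

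The silent modifiers Kcng1, Kcnv1 and Kcnf1 lay below WT in both KO libraries, further in KO B than in KO A. These subunits form no channel alone and shift the gating of Kcnb channels. Kcng1 (chromosome 2, 168087198 to 168094831) had 6.36 FPKM in KO A and 2.50 FPKM in KO B, against 7.88 and 7.42 FPKM in WT (log2 difference -0.77 ± 0.36, SE). Kcnv1 had 6.02 and 2.48 FPKM in KO A and B, against 7.65 and 7.16 FPKM in WT (-0.76 ± 0.34). Kcnf1, the most abundant of the modifiers, had 6.29 and 4.33 FPKM in KO, against 7.58 and 7.62 FPKM in WT (-0.46 ± 0.17). Limma's adjusted p values were 0.531, 0.524 and 0.492. Among the tested modifiers, Kcns2 lay above WT in both KO libraries, with 2.68 and 2.93 FPKM in KO, against 2.25 and 1.80 FPKM in WT, and Kcns1 overlapped (1.98 and 1.16 FPKM in KO, 1.07 and 1.69 FPKM in WT). Cortical excitatory markers had a median of -0.50 from the WT mean in KO A and -1.20 in KO B, and their part in the modifier values was not tested.

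Among auxiliary subunits of Kv channels, Kcnip1 lay above WT and Kcnip2 and Kcnip3 below in both KO libraries. The Kcnip genes encode calcium-binding KChIP proteins that bring Kcnd channels to the surface and slow their inactivation. Kcnip1 (chromosome 11, 33529341 to 33893193), a marker of subsets of inhibitory neurons in cortex, had 26.3 and 33.4 FPKM in KO brain, against 17.1 and 16.5 FPKM in WT. Its mean was 29.8 ± 5.06 FPKM in KO and 16.8 ± 0.386 FPKM in WT (SD, n = 2 each). The log2 difference was 0.78 ± 0.14 (SE; limma adjusted p 0.417). Inhibitory neuron markers summed to 206 and 164 FPKM in KO, against 151 and 144 FPKM in WT. Of these markers 3 of 5 lay above both WT libraries in both, while Dlx1 (log2 difference -0.04) and Dlx2 (-0.12) overlapped between groups. The part of these markers in the Kcnip1 values was not tested. Without KO B, Kcnip1 differed by 0.61 ± 0.07 (limma adjusted p 0.0867), the lowest of the channel rows in that fit. The overlapping gene Kcnmb1 was at 0.0508 and 0.0919 FPKM in KO, against 0.0751 and 0.0906 FPKM in WT.

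Kcnip2 had 16.2 FPKM in KO A and 8.0 FPKM in KO B, against 16.5 and 18.9 FPKM in WT (log2 difference -0.59 ± 0.32, SE), so that KO A lay just under the lower WT library. Kcnip3, also known as a calcium-sensing transcriptional repressor, had 12.04 and 9.63 FPKM in KO, against 13.5 and 12.8 FPKM in WT. Kcnip4 overlapped, with 7.68 and 10.9 FPKM in KO, against 8.47 and 8.73 FPKM in WT. Of the beta subunits that bind Kcna channels, Kcnab2 was the most abundant, with 12.6 FPKM in each KO library, against 12.1 and 11.8 FPKM in WT, and Kcnab1 had 6.67 and 4.06 FPKM in KO, against 8.23 and 7.13 FPKM in WT.

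Of the Kcne genes, which encode small membrane proteins that alter the gating of Kv pores, Kcne2 and Kcne1l were tested. Kcne2, known in brain from the choroid plexus, had 2.81 and 2.89 FPKM in KO brain, against 0.891 and 1.78 FPKM in WT (log2 difference 0.75 ± 0.20, SE; limma adjusted p 0.468). Its WT libraries were 0.55 apart on the log2 scale, the widest WT gap of the channel rows. Choroid plexus markers moved with it: 5 of 6 lay above both WT libraries in both KO libraries, and WT B was above WT A in their sum. Their part in the Kcne2 values was not tested. Kcne1l had 10.5 and 9.39 FPKM in KO, against 10.9 and 9.34 FPKM in WT, with no separation of the groups.

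Promoter windows from RefSeq (build GRCm38.p6, 250 bases before to 50 bases from the start site) were searched for the octamer that CIC binds, spelled TGAATGAA, TGAATGGA, TCAATGAA or TCAATGGA, on both strands. Windows were found for 69 of the 94 names, 94 windows in all, since some genes have several start sites. The octamer was in 4 windows (4.26%), against 3.84% of all 32851 windows. For the tested genes it was in 3 of 68 windows (4.41%), which cover 48 of the 67 names tested. Those 3 belonged to Kcnip1, Kcnip4 and Kcnj10, and the other to the untested Kcns3. A match is a run of letters and not a measured binding site. The 3 matching windows are shown with the window of Kcnc4, the gene with the largest positive difference, which held no match. Each runs 5′ to 3′ on the gene's strand, from 200 bases before the start site to 20 bases from it, with the octamer (here read on the opposite strand) in capitals.
Kcnip1, middle of 3 start sites, chr11:33843667-33843886, minus strand: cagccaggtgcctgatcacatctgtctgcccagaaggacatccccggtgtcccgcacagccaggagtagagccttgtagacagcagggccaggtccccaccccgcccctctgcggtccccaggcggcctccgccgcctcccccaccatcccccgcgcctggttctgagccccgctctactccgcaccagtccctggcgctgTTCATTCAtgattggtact
Kcnip4, chr5:49285640-49285859, minus strand: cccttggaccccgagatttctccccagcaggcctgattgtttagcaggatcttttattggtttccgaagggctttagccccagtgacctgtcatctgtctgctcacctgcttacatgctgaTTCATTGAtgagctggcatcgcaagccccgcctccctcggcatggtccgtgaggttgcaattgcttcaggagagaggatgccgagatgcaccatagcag
Kcnj10, chr1:172341010-172341229, plus strand: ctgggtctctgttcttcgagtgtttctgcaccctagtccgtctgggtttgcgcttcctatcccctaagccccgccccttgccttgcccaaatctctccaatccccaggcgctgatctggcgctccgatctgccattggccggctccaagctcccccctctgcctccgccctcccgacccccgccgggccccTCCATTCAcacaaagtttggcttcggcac
Kcnc4, chr3:107458879-107459098, minus strand: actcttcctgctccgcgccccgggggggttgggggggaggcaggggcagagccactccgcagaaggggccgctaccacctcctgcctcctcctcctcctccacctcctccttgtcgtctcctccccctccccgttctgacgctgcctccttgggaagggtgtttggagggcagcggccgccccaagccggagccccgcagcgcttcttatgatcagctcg

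The octamer began at base 2 of the transcript at this Kcnip1 start site, 9 bases before the start site in Kcnj10 and 79 bases before it in Kcnip4. The level of Kcnip1 covers all its start sites together, so the FPKM values do not say which start site was used. All channel windows had a median GC content of 58.0%, against 52.7% over the windows of all genes, expressed or not. It was 61.2% for tested and 54.3% for untested channel genes, so the value moved with the filter on expression. Gene loci of the channel rows were also longer, with a median span of 29.4 kb, against 16.4 kb over all rows.

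Of 10 tested inward rectifier rows, 2 (20%) lay above both WT libraries in both KO libraries, 4 (40%) lay below and 4 overlapped, where 27.1% of all rows lay above and 21.7% below. Their median log2 difference was -0.16. Kcnj2, the classic strong inward rectifier (chromosome 11, 110927478 to 110938139), had 2.54 and 1.72 FPKM in KO brain, against 4.27 and 3.81 FPKM in WT. The log2 difference was -0.70 ± 0.16 (SE; limma adjusted p 0.424). Without KO B it was -0.51 ± 0.09 (limma adjusted p 0.119). Its relative Kcnj4 had 5.48 FPKM in KO A and 2.35 FPKM in KO B, against 5.84 and 6.49 FPKM in WT (-0.62 ± 0.33), most of it in KO B.

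Kcnj3, the G protein-gated subunit that pairs with other GIRK subunits and the most abundant inward rectifier (chromosome 2, 55289567 to 55447936), had 8.29 and 8.56 FPKM in KO brain, against 11.1 and 10.9 FPKM in WT. Its log2 difference was -0.35 ± 0.09 (SE; limma adjusted p 0.442), and KO A was the lower KO library. The groups overlapped for the other GIRK subunits tested, Kcnj6 and Kcnj9. Kcnj6 had 2.14 and 2.97 FPKM in KO, against 1.86 and 2.25 FPKM in WT, and Kcnj9 had 2.98 and 1.24 FPKM in KO, against 2.86 and 2.65 FPKM in WT. Kcnj11, the pore of ATP-sensitive channels, had 5.04 and 4.69 FPKM in KO, against 5.47 and 5.50 FPKM in WT.

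Kcnj10 and Kcnj13, inward rectifiers of non-neuronal cells, lay above WT. Kcnj10, the potassium-buffering channel of astroglia whose promoter window is shown above, had 6.40 FPKM in KO A and 9.34 FPKM in KO B, against 5.73 and 5.93 FPKM in WT (log2 difference 0.36 ± 0.18, SE; limma adjusted p 0.540). Astrocyte markers summed to 438 and 487 FPKM in KO, against 318 and 342 FPKM in WT, with 3 of 5 above both WT libraries in both. Most of each sum was Apoe, at 313 and 379 FPKM in KO, against 200 and 223 FPKM in WT. The glutamate transporter genes Slc1a3 (log2 difference -0.16) and Slc1a2 (-0.01) overlapped between groups. Kcnj13, a channel of the choroid plexus, had 2.64 and 3.21 FPKM in KO, against 1.44 and 2.23 FPKM in WT (0.48 ± 0.17; adjusted p of 0.487). Like the choroid plexus markers and Kcne2, it was higher in WT B than in WT A. The part of these markers in the values of either gene was not tested, and the Kcnj13 locus overlaps that of Gigyf2 (12.5 and 9.77 FPKM in KO, 12.9 and 13.7 FPKM in WT).

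**Figure D4:**
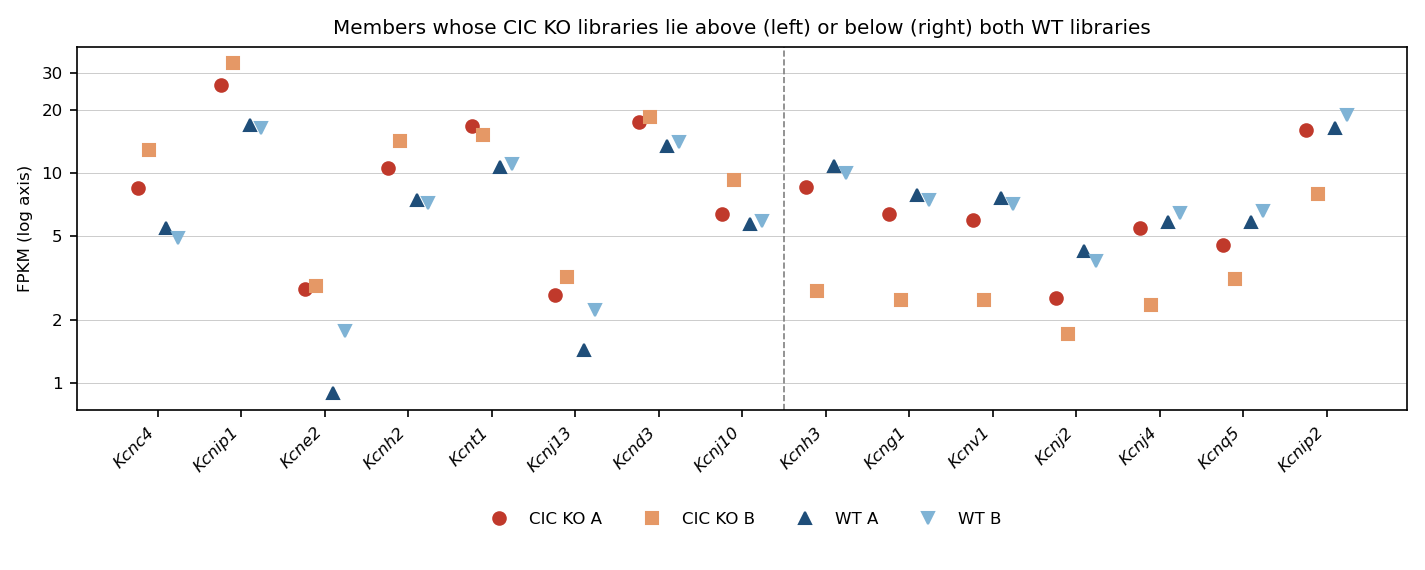
FPKM (log axis) in each library of the 8 channel genes with the largest positive (left) and 7 of those with the largest negative (right) log2 differences among those whose groups do not overlap. For Kcnt1, Kcnd3 and Kcne2 the KO libraries lie close together, while for Kcnh3, Kcng1, Kcnv1, Kcnj4 and Kcnip2 KO B lies far below KO A.

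Among two-pore leak channels, Kcnk9 and Kcnk2 had the KO libraries on either side of WT. Of 7 tested rows, 1 (14.3%) lay above, 2 (28.6%) below and 4 overlapped, where 27.1% of all rows lay above and 21.7% below. The median log2 difference was -0.07. Kcnk9, an acid-sensitive leak channel abundant in cerebellar granule cells of adult rodents (chromosome 15, 72342549 to 72376709), had 6.28 FPKM in KO A and 14.6 FPKM in KO B, against 7.89 and 7.61 FPKM in WT. KO A was thus the lowest library and KO B the highest. Its relative Kcnk3 had 3.201 and 5.33 FPKM in KO A and B, against 3.07 and 3.01 FPKM in WT. Kcnk2, a mechanically and lipid-gated leak channel and the most abundant of the class, had 21.3 FPKM in KO A and 15.3 FPKM in KO B, against 20.58 and 20.65 FPKM in WT. In KO B the hindbrain and cerebellar markers had a median of 2.46 from the WT mean, against -0.01 in KO A, and their part in the two-pore values was not tested.

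Of 6 tested rows of calcium-activated channels, 1 (16.7%) lay above, 1 (16.7%) below and 4 overlapped, where 27.1% of all rows lay above and 21.7% below. Kcnmb4, the beta subunit of neuronal BK channels and the most abundant gene of its class, had 33.3 FPKM in KO A and 23.9 FPKM in KO B, against 31.9 and 32.7 FPKM in WT. The BK pore gene Kcnma1 had 10.5 and 11.4 FPKM in KO, against 11.01 and 11.1 FPKM in WT. The small-conductance gene Kcnn2 had 6.07 and 7.16 FPKM in KO, against 6.58 and 7.38 FPKM in WT, while Kcnn1 had 3.11 and 1.75 FPKM in KO, against 3.82 and 3.44 FPKM in WT (log2 difference -0.46 ± 0.21, SE; limma adjusted p 0.531).

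Kcnt1, the sodium-activated channel behind slow afterhyperpolarisation (chromosome 2, 25719374 to 25773793), had 16.8 and 15.3 FPKM in KO brain, against 10.7 and 11.1 FPKM in WT. Its mean was 16.0 ± 1.08 FPKM in KO and 10.9 ± 0.270 FPKM in WT (SD, n = 2 each). The log2 difference was 0.51 ± 0.10 (SE; limma adjusted p 0.417), equal to that of Kcnip1 and the lowest of the channel rows. Without KO B the log2 difference was 0.58, and without KO A it was 0.45. KO A was further from WT than KO B. Its paralogue Kcnt2 lay on the other side, with 1.54 and 1.84 FPKM in KO, against 2.45 and 2.06 FPKM in WT (-0.28 ± 0.12).

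Genes whose proteins bind, anchor or work beside potassium channels were read from a list of 56 genes, of which 53 were tested. Limma called 0 of them higher and 0 lower. At an unadjusted p under 0.05 there were 10 (18.9%), 6 higher and 4 lower, against 10.2% of all rows (6.61% higher and 3.54% lower). Both KO libraries lay above both WT libraries for 16 (30.2%) and below for 15 (28.3%), against 27.1% and 21.7% of all rows, with a median log2 difference of -0.02. Slc12a5, the neuronal potassium-chloride exporter that lowers chloride as neurons mature, had 36.1 and 41.1 FPKM in KO brain, against 24.4 and 22.4 FPKM in WT (0.70 ± 0.11, SE; limma adjusted p 0.411). Atp1b2, a glial beta subunit of the sodium pump, had 84.0 and 96.1 FPKM in KO, against 64.9 and 66.4 FPKM in WT (0.45 ± 0.11). Lgi3, a secreted partner of Kcna complexes, had 1.58 and 2.64 FPKM in KO, against 1.12 and 0.874 FPKM in WT.

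Cntn2, the axonal adhesion protein that gathers Kcna channels beside nodes of Ranvier, had the largest negative difference of these partners, with 32.3 and 21.1 FPKM in KO brain, against 52.3 and 54.9 FPKM in WT (log2 difference -1.01 ± 0.22, SE; limma adjusted p 0.417). Dlg2, a scaffold that clusters Kcna channels, had 55.7 FPKM in KO A and 32.2 FPKM in KO B, against 61.0 and 63.3 FPKM in WT. Lrrc55, which encodes a gamma subunit of BK channels, had 9.92 and 8.13 FPKM in KO, against 13.4 and 11.8 FPKM in WT. Dpp6, the auxiliary subunit that joins Kcnd channels with the Kcnip proteins, had 47.2 and 54.8 FPKM in KO, against 40.1 and 38.6 FPKM in WT (0.36 ± 0.11).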

How the data were processed

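Brain RNA of postnatal day 1 was sequenced in 2 CIC knockout and 2 WT libraries, grouped by the description field. The authors deposited 1 FPKM value per gene row and library. Per the submitters' processing notes the tools were Cufflinks 2.1.1, TopHat2 2.0.11, cutadapt and bcl2fastq 2.17 and the build mm9, with no settings; the unit was inferred from these tools and the values. Column sums ran from 440005 to 449559 FPKM. Total depth is unknown; the most common ratio of values under 0.15 FPKM put depth relative to WT A at 1.21 for KO A, 1.03 for KO B and 1.20 for WT B.

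FPKM is not a count, so log2(FPKM + 1) was tested with limma 3.58.1 (R 4.3.3; lmFit, eBayes) on the 12703 rows with a mean of 1 or more, KO minus WT, two-sided, Benjamini-Hochberg over all rows, threshold 0.05. This scale understates changes of low genes. The fit had 2 residual and 2.63 prior degrees of freedom, and it was tested on simulated data. The 13 alternatives changed the pseudocount, filter, scaling, variance model, weights, replicate block or libraries. Coordinates are mm9 with the start raised by 1; promoter windows are GRCm38.p6.

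The members and lists were chosen with earlier results of these data known. Genes named are, per subfamily, the most abundant; the 8 largest differences each way without overlap; the 5 widest KO and 3 widest WT library gaps; 3 partners each way; and Cic. Kcnab1, Kcne4, Kcng4, Kcnh4, Kcnh7, Kcnh8, Kcnip3, Kcnip4, Kcnj11, Kcnj5, Kcnj6, Kcnj9, Kcnk12, Kcnk3, Kcnma1, Kcnn1, Kcnq1, Kcnq3, Kcns2, Kcns3, Kcnt2 and Dpp6 were named beyond that rule after values were seen. Some genes that the rule names are not reported here. Red blood cell markers summed to 9.51 and 703 FPKM in KO A and B, against 194 and 129 FPKM in WT. Both Hba-a1 rows were listed at 0 in KO A. Most of the KO A sum was Alas2, at 9.25 FPKM, against 8.88 and 5.76 FPKM in WT.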

Additional observations from a re-analysis of the deposited data

How the results depend on the processing

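No potassium channel row was called higher or lower with a pseudocount of 0.1 or 5, with no filter, with a mean FPKM of 5 or more, with libraries rescaled, with limma's trend, with rows listed at 0 left out or with quality weights. The lowest adjusted p of a channel row in those fits ran from 0.314 (no filter) to 0.440 (pseudocount of 0.1). With the replicate letter as a replicate block the counts were also 0 and 0, and the lowest adjusted p of a channel row was 0.278. The labels do not say that a letter marks a shared litter or day. Deviations of same-lettered libraries had a correlation of -0.01 over 12703 rows, which cannot exclude one. Leaving out 1 library at a time gave 0 to 10 channel rows higher and 0 to 24 lower, and 0 to 8 partners higher and 0 to 11 lower. All calls came without KO A, and the other omissions gave 0. The median log2 difference of the channel rows, -0.07, ranged from -0.13 (without KO A) to 0.03 (without KO B) and was 0.00 with no filter. For the partners it ranged from -0.07 to 0.02 over all settings. Of 476 values for named genes, 27 passed the threshold that the comparison of all 4 libraries missed, and 12 of the 476 took the other sign, all of them on leaving out 1 library. Kcnk9, at 0.28, was -0.27 without KO B, and Kcnk2, at -0.18, was 0.05. Total depth is unknown and 2 libraries a group limit the precision, so a row that missed the threshold is not shown to be equal in both groups.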

Other observations

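The 27 channel rows under a mean of 1 FPKM were not tested, and 17 of them were above 0 in every library. Kcng4, a silent modifier, had 0.0550 FPKM in KO A and 0.299 FPKM in KO B, against 0.0167 and 0.0208 FPKM in WT, so that KO B stood apart. Kcnj5, a G protein-gated subunit, had 0.422 and 0.596 FPKM in KO, against 0.342 and 0.298 FPKM in WT. Kcnq1, best known from heart and inner ear, had 0.211 and 0.197 FPKM in KO, against 0.372 and 0.295 FPKM in WT. Kcns3 had 0.575 and 0.493 FPKM in KO, against 0.779 and 0.777 FPKM in WT. Kcne4 was uneven within both groups, with 1.15 and 0.404 FPKM in KO, against 0.341 and 1.23 FPKM in WT. These levels are low and carry no test.

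Kcnh4, a relative of Kcnh3, was the highest in KO A and the lowest in KO B, with 8.16 and 4.37 FPKM, against 5.36 and 5.88 FPKM in WT. Kcnk12, a silent two-pore subunit, had the same order, with 2.51 and 1.51 FPKM in KO A and B, against 1.64 and 1.91 FPKM in WT. Both rows overlap between groups although the KO libraries lie on either side of WT.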
